A study of Mus musculus with 2 samples.

Results

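Decorin-high barcodes are a set of tumour cells in which decorin, a secreted collagen-binding proteoglycan better known from fibroblasts, reached at least 2500 CPM (a gene's UMIs as a share of all UMIs of the barcode, scaled to a common total). A barcode here stands for 1 droplet, and a UMI for 1 captured transcript. The members had at least 1000 UMIs, under 20% mitochondrial UMIs, no UMI of Ptprc (the leukocyte antigen CD45) and, also by the rule, under 1000 CPM of Col1a1, the main fibrillar collagen gene. The rule found 1406 members in the antibody library and 2391 in the control library, 3797 of the 26063 barcodes in both tables.

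The tumours were grown in mice from CT26, a mouse colon carcinoma line. The antibody group was given an antibody against SLC7A11, the cystine carrier of the xCT exchanger, and the control group an IgG antibody, both at 10 mg per kg of body weight every 2 days once tumours had reached 50 to 100 mm³. The sources used here do not settle where the sampled tumours grew, since the caecum and the subcutis are both mentioned. Mouse strain, sex and age, the number of tumours per library and the genotype of the cells beyond the line's name are not given in the sources used here. Each group is 1 library, so no difference between them has a replicate check and no p-value is given. Intervals in brackets are exact 95% intervals that cover counting error only.

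Decorin belongs to the small leucine-rich proteoglycans, secreted proteins that coat collagen fibrils and bind growth factors such as TGF-beta. Stromal fibroblasts are their usual source in tumours. Stromelysin, complement proteins and acute phase proteins are secreted by fibroblasts and by many other cells in inflamed or injured tissue. CT26 cells are poorly differentiated and mesenchymal in shape, and carry few markers of gut epithelium.

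The tables held 143659000 UMIs in the antibody library and 129044000 in the control library, to 6 digits. The median depth of a member was 7093 UMIs in the antibody library and 4821 in the control library. The set used for comparison, named Dcn-low tumour barcodes below, had 2 or more UMIs of Hmga2 (a chromatin protein of embryonic and transformed cells), under 2500 CPM of Dcn, and the same limits on depth, mitochondrial share and Ptprc. It held 4457 antibody and 7897 control barcodes with median depths of 16820 and 10818 UMIs, so the members were the shallower set in both libraries. The libraries shared 39 barcode sequences, of which 1 was a member in both.

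The label of malignant cells was checked against markers. Hmga2 reached 2 UMIs in 53.3% of antibody members (50.7 to 56.0) and 58.1% of control members (56.1 to 60.1), against 33.9% and 49.7% of the Col1a1-high barcodes described below. These shares were not thinned. At an equal 1000 UMIs per barcode, a Hmga2 UMI was found in 27.7% of antibody and 40.6% of control members. The same share was 29.6% and 41.5% in Col1a1-high barcodes, so at equal depth Hmga2 did not set the members apart from them. In Dcn-low tumour barcodes, which were chosen by Hmga2, it was 48.3% and 60.0%. The T cell and macrophage barcodes were chosen to hold no Hmga2 UMI, so they give no check of this gene. Of the other malignant cell genes on the list, 8 were tested and 2, Krt8 and Prl2c2, were at least 2-fold lower in the members than in Dcn-low tumour barcodes of both libraries, with none higher and median log2 ratios of -0.60 in each library. Of all genes tested, 1.76% were at least 2-fold lower and 3.86% higher in both. Krt8, an epithelial keratin, had 0.386 CPM in antibody members and 0.601 CPM in control members, against 3.0 and 2.55 CPM. The 4 Y-linked genes Ddx3y, Eif2s3y, Kdm5d and Uty summed to 3.17 CPM in antibody members and 2.14 CPM in control members. The same sum was 2.65 and 1.5 CPM in Dcn-low tumour barcodes, against 223 and 217 CPM in T cell barcodes and 132 and 127 CPM in macrophage barcodes of the antibody and control libraries. Y-linked transcripts were at a few CPM in the members and in Dcn-low tumour barcodes and far below the level in leukocytes of the same libraries. The labels call the cells goblet cells, but Muc2 (the gut mucin) and Tff3 (a goblet cell peptide) had no UMI in the members of either library, which allows up to 0.232 CPM in the antibody and 0.200 CPM in the control members (3 counts over the sum). The 9 goblet cell genes together reached 2.16 CPM in antibody members and 4.28 CPM in control members. Epcam, the epithelial adhesion molecule, also had no UMI.

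The collagen-rich barcodes of these tumours were kept out by the Col1a1 limit and differed from the members in other genes as well. Ptprc-zero barcodes with at least 1000 CPM of Col1a1 numbered 186 in the antibody library and 159 in the control library. A list of 15 fibroblast genes, without Col1a1, summed to 1311 CPM in antibody members and 1917 CPM in control members, against 26608 and 18393 CPM in the Col1a1-high barcodes and 573 and 711 CPM in Dcn-low tumour barcodes. Col3a1, a fibrillar collagen, had 466 and 703 CPM in antibody and control members, against 13005 and 8524 CPM in the Col1a1-high barcodes. The Y-linked sum of the Col1a1-high barcodes was 102 CPM in the antibody library and 95.2 CPM in the control library. All 15 were detected in the members, and 8 were at least 2-fold higher there than in Dcn-low tumour barcodes of both libraries, where 3.86% of all genes were, with median log2 ratios of 1.11 and 1.05. The 8 were Clec3b, Col3a1, Dpt, Fap, Lum, Mfap5, Pdgfra and Pdgfrb, and the part of stromal cells or their RNA in this was not tested. The 10 macrophage genes summed to 434 and 355 CPM in antibody and control members, against 32524 and 43573 CPM in macrophage barcodes.

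Members made up a smaller share of the antibody library than of the control library, and the gap was smaller among Ptprc-zero barcodes. Of barcodes that passed the depth and mitochondrial limits, 12.9% (12.3 to 13.6; 1406 of 10868) were members in the antibody library and 18.2% (17.6 to 18.9; 2391 of 13111) in the control library, a log2 ratio of -0.50 (-0.59 to -0.40). Of Ptprc-zero barcodes the shares were 18.8% (17.9 to 19.7) and 20.3% (19.6 to 21.1), a log2 ratio of -0.11 (-0.21 to -0.015). Barcodes that met the Dcn limit, at any Col1a1 level, but held a Ptprc UMI numbered 161 in the antibody library and 68 in the control library. Fewer cells of this kind and other differences between the 2 libraries cannot be told apart.

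Dcn had no gap at the threshold. Per barcode, the 10th percentile, median and 90th percentile of Dcn in the members were 2954, 5788 and 13161 CPM in the antibody library and 2841, 5773 and 14645 CPM in the control library. Members just inside the threshold, at 2500 to 3000 CPM of Dcn, had 380 CPM of Mmp3 in the antibody library (159 barcodes) and 541 CPM in the control library (329 barcodes). Ptprc-zero barcodes just outside it, at 2000 to 2500 CPM, had 342 CPM (212 barcodes) and 368 CPM (417 barcodes). The members are the upper range of a continuous distribution. Dcn UMIs were also found in T cells, which should lack the gene: at 1000 UMIs per barcode, 12.2% of T cell barcodes in the antibody library and 7.37% in the control library still held a Dcn UMI, against 99.1% of members in each library. The median depths of these T cell barcodes before thinning were 2946 and 2088 UMIs.

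**Figure D1:**
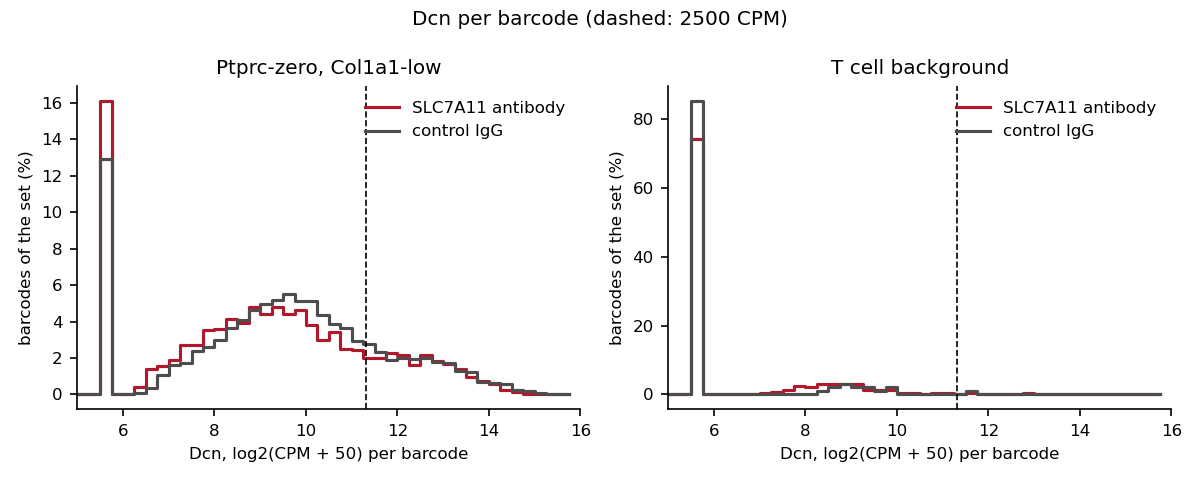
Distribution of Dcn per barcode, as log2(CPM + 50), in Ptprc-zero Col1a1-low barcodes (left) and in T cell barcodes (right), each as a percentage of the set, with the antibody library in red and the control library in grey. The dashed line marks 2500 CPM: the distribution runs across it without a gap, and nearly all T cell barcodes lie below it.

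The 5 other genes that mark the set were higher in it than in Dcn-low tumour barcodes in both libraries. These markers were chosen from these cells, so their levels are a description. Mmp3, the secreted protease stromelysin-1, had 1180 CPM in antibody members and 1631 CPM in control members, against 70.7 and 85.6 CPM in Dcn-low tumour barcodes. Cp, the copper-carrying ferroxidase ceruloplasmin, had 661 and 546 CPM in the members, against 51.3 and 47.9 CPM. Apod, a secreted lipid-binding lipocalin, had 621 and 405 CPM in the members, against 58.9 and 29.7 CPM. Over both libraries these differences were 10.5-fold to 19.0-fold.

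Aspn (asporin) and Ogn (osteoglycin), both proteoglycans of the decorin family, showed the same pattern. Aspn had 248 CPM in antibody members and 229 CPM in control members, against 8.51 and 9.01 CPM in Dcn-low tumour barcodes. Ogn had 289 and 131 CPM in the members, against 18.1 and 8.56 CPM. Dcn itself, which the rule used, had 6047 and 6355 CPM in the members, against 602 and 704 CPM. Markers were also high in Col1a1-high barcodes, to differing degrees. Mmp3 had 1180 and 1631 CPM in antibody and control members, against 1420 and 897 CPM in Col1a1-high barcodes. Apod had 621 and 405 CPM in the members, against 535 and 187 CPM, and Cp 661 and 546 CPM, against 180 and 70.0 CPM. In T cell barcodes Dcn had 247 CPM in the antibody library and 147 CPM in the control library.

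**Figure D2:**
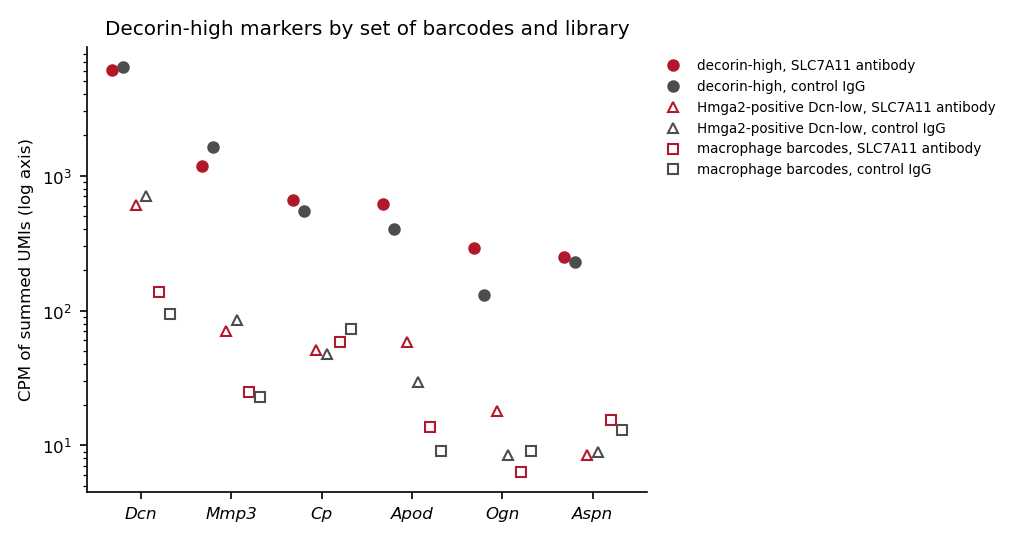
CPM of summed UMIs (log axis) of the 6 marker genes in decorin-high members (filled circles), Dcn-low tumour barcodes (triangles) and macrophage barcodes (squares), with the antibody library in red left of the control library in grey. The members lie above both other sets for each gene, for example at 1180 and 1631 CPM of Mmp3.

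Members varied in how much of the program they carried. All 5 of Mmp3, Cp, Aspn, Apod and Ogn were detected in 33.1% of antibody members (30.7 to 35.7) and 16.6% of control members (15.1 to 18.1), against 2.04% and 0.899% of Dcn-low tumour barcodes. None of the 5 was detected in 3.77% of antibody members and 6.86% of control members, against 32.7% and 51.7% of Dcn-low tumour barcodes. The Dcn-low barcodes were the deeper ones in both libraries. Antibody members were also deeper than control members, with medians of 7093 and 4821 UMIs, and these shares were not thinned. Single genes were uneven too: no Aspn UMI was found in 48.1% of antibody members and 60.9% of control members, while its 90th percentile per barcode was 1183.5 and 1056 CPM. At an equal 1000 UMIs per barcode, Mmp3 was detected in 46.0% of antibody members (43.4 to 48.7) and 50.1% of control members (48.0 to 52.1). The same share was 5.45% and 5.52% in Dcn-low tumour barcodes and 2.55% and 3.16% in T cell barcodes. Ogn was detected in 24.8% (22.6 to 27.2) of thinned antibody members and 13.0% (11.7 to 14.4) of thinned control members, and Aspn in 23% (20.8 to 25.3) and 20.7% (19.0 to 22.3).

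Beyond the 6 markers, the genes with the highest ratio over Dcn-low tumour barcodes in both libraries were secreted proteoglycans, acute phase proteins and inflammatory mediators. Hp, the haemoglobin-binding protein haptoglobin, had 77.0 CPM in antibody members and 40.6 CPM in control members, against 2.41 and 0.919 CPM in Dcn-low tumour barcodes. Its log2 ratio was 4.99 in the antibody library and 5.46 in the control library. Cxcl5, a ligand of the neutrophil receptor CXCR2, had 203 and 107 CPM in the members, against 8.40 and 5.95 CPM. Lcn2, a lipocalin that binds bacterial siderophores, had 84.2 and 56.7 CPM in the members, against 5.05 and 2.67 CPM. Il6, a cytokine that induces acute phase proteins in liver, had 31.2 and 24.1 CPM in the members, against 2.74 and 1.63 CPM. A minority of members held a UMI of each of these genes. The shares were 14.4% of antibody and 3.89% of control members for Hp, and 36.9% and 16.2% for Cxcl5. They were 24.2% and 7.65% for Lcn2 and 14.4% and 7.57% for Il6. Some of these genes were higher still in Col1a1-high barcodes, where Cxcl5 had 277 and 281 CPM, Il6 158 and 82.6 CPM and Lum 599 and 310 CPM in the antibody and control libraries.

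The same ranking held Lum (lumican), Omd (osteomodulin) and Prelp, further proteoglycans of the decorin family. It also held 3 enzymes. Dio2, which activates thyroid hormone, had 36.1 CPM in antibody members and 55.0 CPM in control members, against 2.5 and 2.89 CPM in Dcn-low tumour barcodes. Inmt, a methyltransferase of small amines, had 31.2 and 35.4 CPM in the members, against 1.96 and 3.23 CPM. Aldh1a1, an enzyme of retinoic acid synthesis, had 16.9 and 9.49 CPM in the members, against 1.30 and 0.919 CPM. For each of these enzymes, the members of both libraries stood above both comparison values.

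Start site windows from RefSeq (build GRCm38.p6, 250 bases before to 50 after the start) were searched for 3 motifs, since the members as a set had high levels of these genes. Of the 16 genes that were markers or led the ranking, 12 had a window. AP-1 (TGANTCA, both strands) was found in 4 of the 12, against 8.97% of all 27025 genes with a window. C/EBP (TTGCNNAA, both strands) was found in 6 of the 12, against 12.2%. The letters TATAAA of the core promoter box (both strands, anywhere in the window) were found in 6 of the 12, against 15.7%. Matches of different motifs did not overlap within these windows, while neighbouring matches of the core promoter box shared bases in Cp and in Ogn. A match describes letters and not a bound site. The windows of Mmp3 (chr9:7445572-7445871, plus strand), Lcn2 (chr2:32387690-32387989, minus strand), Il6 (chr5:30012864-30013163, plus strand) and one of the 2 of Cp (chr3:19956999-19957298, plus strand) are printed 5′ to 3′ with the motif matches in capitals, to show where they lie. Dcn, Hp, Cxcl5 and Lum were without a window.
Mmp3: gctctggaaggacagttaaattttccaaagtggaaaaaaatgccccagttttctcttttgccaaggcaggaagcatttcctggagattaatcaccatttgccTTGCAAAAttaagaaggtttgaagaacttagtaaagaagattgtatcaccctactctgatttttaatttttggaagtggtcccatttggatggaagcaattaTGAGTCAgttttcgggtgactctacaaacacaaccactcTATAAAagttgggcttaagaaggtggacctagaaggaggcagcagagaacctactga
Lcn2: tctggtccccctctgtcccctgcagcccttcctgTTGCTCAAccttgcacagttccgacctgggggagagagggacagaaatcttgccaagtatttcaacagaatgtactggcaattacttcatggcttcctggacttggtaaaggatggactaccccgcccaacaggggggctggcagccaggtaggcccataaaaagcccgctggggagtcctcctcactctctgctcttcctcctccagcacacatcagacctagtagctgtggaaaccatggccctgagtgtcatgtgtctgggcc
Il6: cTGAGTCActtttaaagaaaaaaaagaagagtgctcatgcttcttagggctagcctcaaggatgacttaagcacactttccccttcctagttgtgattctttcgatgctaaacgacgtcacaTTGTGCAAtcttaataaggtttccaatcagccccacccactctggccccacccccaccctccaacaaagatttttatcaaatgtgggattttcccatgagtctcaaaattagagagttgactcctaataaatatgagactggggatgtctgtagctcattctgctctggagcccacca
Cp: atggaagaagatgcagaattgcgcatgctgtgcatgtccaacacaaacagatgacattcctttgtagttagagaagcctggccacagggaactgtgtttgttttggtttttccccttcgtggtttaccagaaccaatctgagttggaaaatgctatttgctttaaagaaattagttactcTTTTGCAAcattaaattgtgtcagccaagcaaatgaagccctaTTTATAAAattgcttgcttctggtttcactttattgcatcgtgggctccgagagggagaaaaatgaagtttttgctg
The AP-1 match of Mmp3 began at position -46 relative to the RefSeq start and its C/EBP match at -148. The C/EBP match of Il6 began at -128, that of Lcn2 at -216 and that of Cp at -70. TATAAA matches began at -30 in Dio2, at -27 and -25 in Cp and at -7 in Mmp3. They began at -80 and -69 in Inmt, at -207 and -178 in Aspn and at -229 and -227 in Ogn.

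Complement and acute phase genes were the inflammatory group with the most members higher. Across all genes, 3.86% of the 16096 tested (622) were at least 2-fold higher and 1.76% (283) at least 2-fold lower in the members than in Dcn-low tumour barcodes in both libraries. Scaled by the median of ratios, 423 were higher and 451 lower. Of 17 listed genes in the tables other than Cp, 14 had enough UMIs in both libraries (at least 20 per library over both sets), and 12 of those were at least 2-fold higher and none at least 2-fold lower. Their median log2 ratio was 2.08 in the antibody library and 2.55 in the control library, beside 0.08 and 0.10 for all genes tested. The 3 that had too few UMIs are not counted. The group was not particular to the members. The 17 genes summed to 891 and 403 CPM in antibody and control members, against 6408 and 2801 CPM in Col1a1-high barcodes.

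C3, the central complement component, had 78.2 CPM in antibody members and 17.6 CPM in control members, against 10.1 and 1.79 CPM in Dcn-low tumour barcodes. C1s1, a protease of the C1 complex, had 216 and 95.9 CPM in the members, against 30.5 and 8.37 CPM. Serping1, the inhibitor of that protease, had 195 and 72.3 CPM in the members, against 60.3 and 13.8 CPM. Activating and inhibiting components were thus both higher. Saa3, an acute phase apolipoprotein, had 58.6 and 43.7 CPM in the members, against 16.8 and 2.29 CPM. A UMI of C3 was found in 38.3% of antibody and 7.70% of control members, and of Saa3 in 8.61% and 2.26%. C3 was also high in other cells: it had 738 and 210 CPM in Col1a1-high barcodes and 123 and 32.6 CPM in macrophage barcodes of the antibody and control libraries.

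Among the small leucine-rich proteoglycans other than Dcn, 7 of 13 had enough UMIs. Of the 7, 6 were at least 2-fold higher in both libraries, 2 of them markers of the set, beside 3.86% of all genes. Lum had 62.6 CPM in antibody members and 189 CPM in control members, against 4.29 and 9.32 CPM in Dcn-low tumour barcodes. Omd had 75.4 and 39.5 CPM in the members, against 6.8 and 4.0 CPM. Bgn (biglycan), the closest relative of decorin, missed the fold in the antibody library with 15.1 CPM in the members against 9.14 CPM, and had 32.7 against 10.3 CPM in the control library. Fmod, Chad and Optc had no UMI in the members of either library. Without Dcn and the 2 markers, the list summed to 198 and 288 CPM in antibody and control members. The same sum was 1859 and 1611 CPM in Col1a1-high barcodes.

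Matrix proteases were higher in part. Of 16 tested genes of metalloproteinases, their inhibitors and the plasminogen system other than Mmp3, 4 were at least 2-fold higher in both libraries and 1 was lower. Of all genes tested, 3.86% were higher and 1.76% lower. Mmp19 had 59.2 CPM in antibody members and 73.4 CPM in control members, against 14.4 and 16.5 CPM in Dcn-low tumour barcodes. Mmp13, a collagenase, had 11.3 and 36.6 CPM in the members, against 5.07 and 6.28 CPM, and Mmp10 and Mmp2 also passed the fold. The one lower gene was Plaur, the urokinase receptor, with 75.5 and 78.0 CPM in the members, against 175 and 163 CPM. Timp1, an inhibitor of these proteases, had 738 and 971 CPM in the members, against 1059 and 1502 CPM, which is under 2-fold.

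Of 16 tested collagen genes other than Col1a1, 3 were at least 2-fold higher in both libraries, beside 3.86% of all genes. All 3 were fibril or microfibril chains: Col3a1, Col6a1 and Col6a2. Col3a1 had 466 CPM in antibody members and 703 CPM in control members, against 140 and 179 CPM in Dcn-low tumour barcodes. Fibroblast receptor genes followed the same direction, with Pdgfra at 20.9 and 33.7 CPM in the members, against 6.43 and 9.65 CPM. Pdgfrb had 39.9 and 67.2 CPM in the members, against 12.6 and 18.1 CPM. These levels stayed below those of Col1a1-high barcodes, where Pdgfra had 187 and 164 CPM, and whether stromal transcripts in the droplets contribute was not tested.

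Chemokines and cytokines were higher in part. Of 21 tested genes, 9 were at least 2-fold higher in both libraries and none lower, beside 3.86% and 1.76% of all genes. Ccl2, which attracts monocytes, had 1806 CPM in antibody members and 663 CPM in control members, against 294 and 155 CPM in Dcn-low tumour barcodes. Ccl7, its neighbour in function, had 170 and 74.9 CPM in the members, against 44.6 and 22.6 CPM. Cxcl1, another CXCR2 ligand, had 3045 and 1635 CPM in the members, against 957 and 556 CPM. Csf3, the granulocyte growth factor G-CSF, had 3.79 and 9.96 CPM in the members, against 0.562 and 0.491 CPM. Il33, an alarmin, was not among them and had 67.6 and 103 CPM in the members, against 104 and 130 CPM.

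Genes of TGF-beta and BMP signalling were higher for 6 of 25 tested and lower for none, beside 3.86% and 1.76% of all genes. Id3, a target of BMP signalling, had 227 CPM in antibody members and 93.8 CPM in control members, against 24.4 and 7.14 CPM in Dcn-low tumour barcodes. Inhba, the activin A subunit, had 304 and 321 CPM in the members, against 131 and 105 CPM. Tgfbr3, the co-receptor betaglycan, had 193 and 209 CPM in the members, against 74.3 and 85.8 CPM. The list summed to 1492 and 1381 CPM in antibody and control members, against 3352 and 2633 CPM in Col1a1-high barcodes. Of 20 tested matricellular and matrix genes 5 were higher, among them Ccn1 (977 and 265 CPM in the members, against 399 and 119 CPM) and Thbs1 (37.9 and 12.8 CPM, against 9.62 and 5.13 CPM).

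Cell cycle genes were lower in the members. Of 24 proliferation genes, all tested, 18 were at least 2-fold lower in both libraries and none higher, beside 1.76% and 3.86% of all genes. The median log2 ratio was -1.36 in the antibody library and -1.37 in the control library. Mki67, which marks cycling cells, had 20.6 CPM in antibody members and 27.2 CPM in control members, against 52.6 and 68.3 CPM in Dcn-low tumour barcodes. Ccnb1, the mitotic cyclin, had 28.7 and 33.5 CPM in the members, against 90.8 and 110 CPM. Plk1, a mitotic kinase, had 17.7 and 19.4 CPM in the members, against 50.8 and 59.6 CPM.

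Cycling members existed, but were fewer. With each barcode thinned to 3000 UMIs, 2 or more UMIs of Mki67 and Top2a together were found in 5.85% of antibody members (4.64 to 7.25) and 6.04% of control members (5.01 to 7.19), against 24.1% and 24.9% of Dcn-low tumour barcodes. The thinning left out 89 and 469 shallower members and 264 and 728 shallower Dcn-low barcodes. Without thinning the shares were 11.9% and 9.16% of members, against 47.0% and 40.3%. Cycling members carried the program at lower levels, to a degree that differed by gene. Mmp3 was at 857 CPM in the 168 cycling antibody members and 1286 CPM in the other antibody members. In control members it was at 1195 CPM in the 219 cycling ones and 1746 CPM in the others. Cp was at 332 against 769 CPM in antibody and 254 against 623 CPM in control members. Aspn was at 67.6 against 307 and 80.2 against 268 CPM, and Ogn at 73.2 against 360 and 41.1 against 154 CPM. Apod was lower as well. Cycling members were the deeper ones, with medians of 16354 against 6555.5 and 12033 against 4558.5 UMIs.

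Genes outside the cell cycle were among the lowest as well. Car6, a secreted carbonic anhydrase, had 2.94 CPM in antibody members and 17.2 CPM in control members, against 13.5 and 68.2 CPM in Dcn-low tumour barcodes. Klk10, a secreted serine protease, had 7.26 and 6.15 CPM in the members, against 27.6 and 26.9 CPM. Cldn6, a tight junction claudin of embryonic epithelia, had 4.48 and 6.42 CPM in the members, against 21.6 and 23.9 CPM. Amino acid stress genes under ATF4 were lower for 6 of 22 tested and higher for none, beside 1.76% and 3.86% of all genes. Phgdh, the first enzyme of serine synthesis, had 68.6 and 108 CPM in the members, against 161 and 231 CPM. Psat1, the next enzyme, had 57.4 and 59.6 CPM in the members, against 138 and 132 CPM.

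Genes that respond to tissue dissociation were also higher for 7 of 24 tested, beside 3.86% of all genes. Their median log2 ratio was 0.84 in the antibody library and 0.69 in the control library. Btg2, which restrains cell division, had 1582 CPM in antibody members and 1170 CPM in control members, against 536 and 385 CPM in Dcn-low tumour barcodes. Fos, an AP-1 subunit, missed the fold in the antibody library with 2399 CPM in the members against 1220 CPM. It had 3362 against 1466 CPM in the control library. The part of dissociation in the other groups was not tested.

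**Figure D3:**
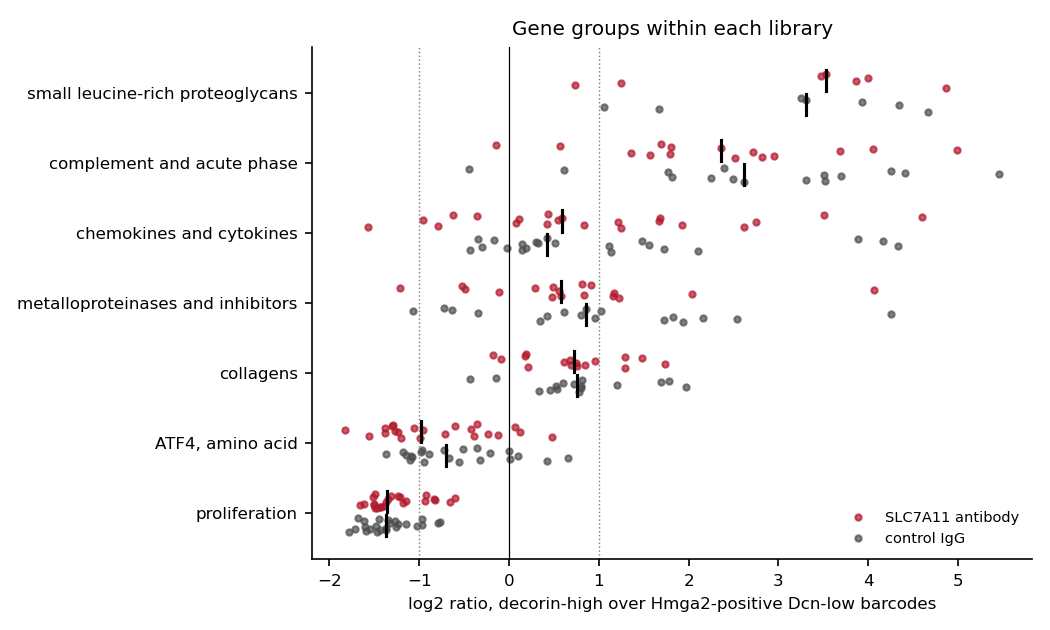
Log2 ratio of decorin-high members over Dcn-low tumour barcodes for the tested genes of 7 lists, without Dcn and Col1a1, with antibody library points above control library points, list medians as black bars and dotted lines at 2-fold. Proteoglycan and complement genes lie mostly to the right of 2-fold and proliferation genes mostly to the left, in both libraries.

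Within the members, the gene groups differed by Dcn level. For Dcn of 2500 to 5000, 5000 to 10000 and at least 10000 CPM, the antibody library held 608, 518 and 280 members and the control library 1006, 856 and 529. The complement and acute phase sum without Cp was 560, 1033 and 1878 CPM over these steps in the antibody library and 230, 465 and 902 CPM in the control library. Cxcl5 was at 109, 244 and 483 CPM in the antibody library and at 32.3, 106 and 381 CPM in the control library. The proliferation sum ran the other way, at 1769, 1000 and 414 CPM in the antibody library and 1825, 908 and 296 CPM in the control library.

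Hmga2 followed the proliferation genes, with 507, 393 and 317 CPM over the 3 steps in the antibody library and 808, 651 and 411 CPM in the control library. Depth moved with the steps as well, with median UMIs of 9230, 6500 and 5692 in the antibody library and 6122, 4490 and 3799 in the control library, and its part in these trends was not tested. The Y-linked sum stayed between 1.74 and 3.98 CPM in all 6 steps. The lowest of the leukocyte and Col1a1-high sets was at 95.2 CPM.

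**Figure D4:**
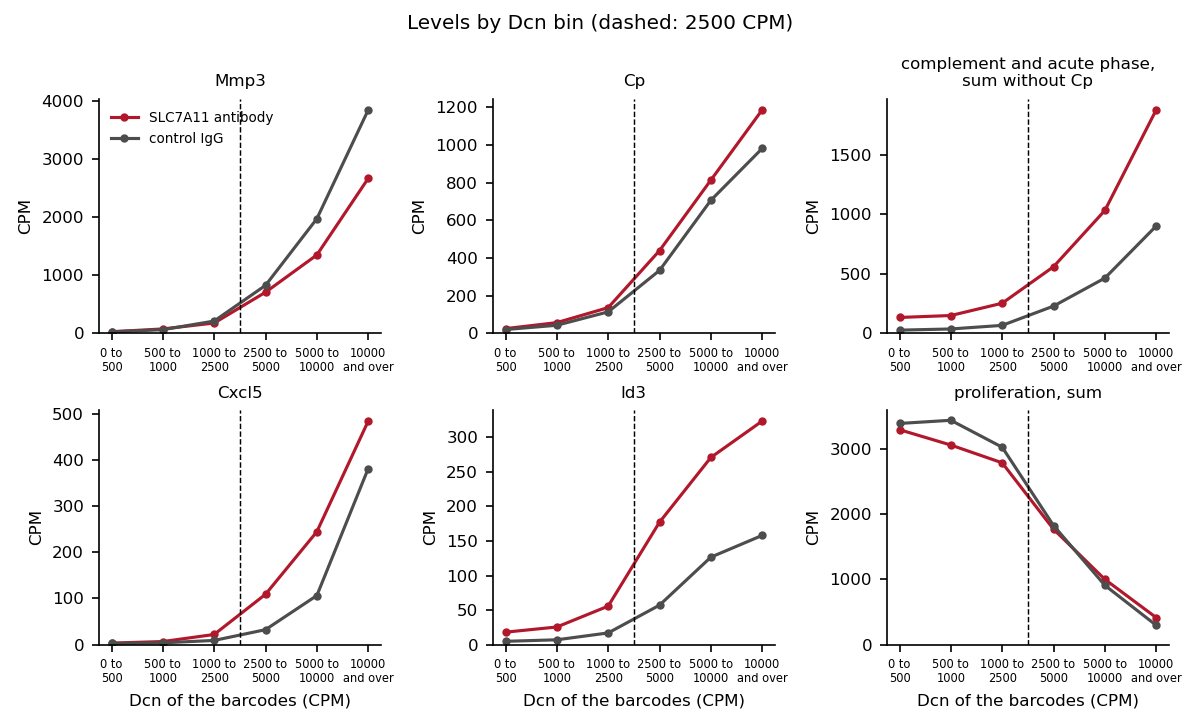
CPM of Mmp3, Cp, the complement and acute phase genes without Cp, Cxcl5, Id3 and the proliferation genes in Ptprc-zero Col1a1-low barcodes by Dcn level, with the antibody library in red and the control library in grey. The dashed line marks the 2500 CPM threshold: proliferation genes are lower, and the other genes higher, at each higher Dcn step among the members.

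Between the libraries, 1 of the 6 markers, Ogn, differed by at least 2-fold in the members. Dcn was at 6047 CPM in antibody members and 6355 CPM in control members, a log2 ratio of -0.07. The ratios were -0.47 for Mmp3, 0.27 for Cp, 0.12 for Aspn, 0.62 for Apod and 1.15 for Ogn. In Dcn-low tumour barcodes they were -0.28, 0.10, -0.08, 0.99 and 1.08 for the same 5 genes. Of 13752 genes tested in the members, 9.9% were at least 2-fold higher and 4.52% at least 2-fold lower in the antibody library (1361 and 622 genes), with a median log2 ratio of -0.18. Scaled by the median of ratios, 1593 were higher and 421 lower.

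Of 24 interferon gamma response genes, 22 were at least 2-fold higher in antibody members and none lower, with a median log2 ratio of 2.78. All 24 were at least 2-fold higher in Dcn-low tumour barcodes, where 10.7% of all genes were at least 2-fold higher and 4.68% lower and the list's median was 3.17. The type I interferon list had 7 of 24 at least 2-fold higher in antibody members and none lower, with a median of 0.76, beside 1.05 in Dcn-low tumour barcodes. Cxcl10, a ligand of the T cell receptor CXCR3, had 896 CPM in antibody members and 125 CPM in control members. Iigp1, an immunity-related GTPase, had 787 and 69.3 CPM. Cd274, which encodes the T cell inhibitor PD-L1, stood at 107 and 10.3 CPM. The level of these genes was higher in members than in Dcn-low tumour barcodes within each library, with a list sum of 4426 and 697 CPM in antibody and control members, against 2532 and 331 CPM.

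MHC class I and antigen processing genes followed, with 12 of 19 at least 2-fold higher in antibody members and none lower, beside 9.9% and 4.52% of all genes. H2-K1, a classical class I heavy chain, had 3924 CPM in antibody members and 1036 CPM in control members, while B2m, its light chain, had 5087 and 4200 CPM. Markers of T and NK cells moved with these groups: 7 of 7 tested were at least 2-fold higher, and their sum was 32.8 CPM in antibody members and 4.88 CPM in control members, against 9271 and 10926 CPM in T cell barcodes. Cd3e had 4.71 and 0.535 CPM in antibody and control members, and none of the 10 listed markers was at 0. Their part in the result was not tested.

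Of 15 tested complement and acute phase genes, 9 were at least 2-fold higher in antibody members and 1 was lower. Of all genes tested, 9.9% were higher and 4.52% lower. The median log2 ratio of the list was 1.21. In Dcn-low tumour barcodes the median of this list was 1.97. C3 had a ratio of 2.15 in the members and 2.5 in Dcn-low tumour barcodes, and Serping1 of 1.43 and 2.13. Saa3, by contrast, differed by 0.42 in the members and 2.87 in Dcn-low tumour barcodes. Its control level was 43.7 CPM in the members and 2.29 CPM in Dcn-low tumour barcodes. A Saa3 UMI was found in 54 of 2391 control members and 121 of 1406 antibody members, so the member values rest on few barcodes.

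**Figure D5:**
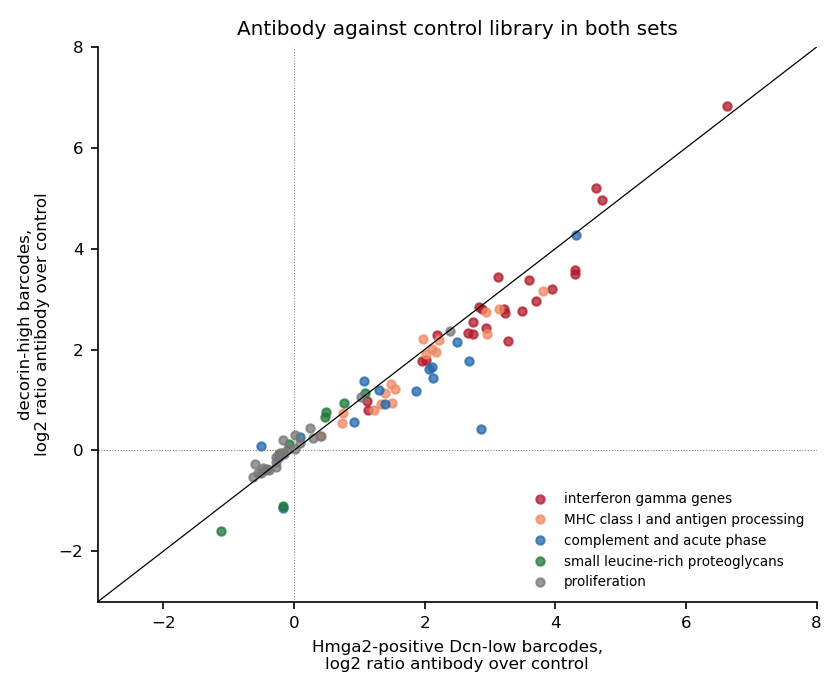
Log2 ratio of the antibody over the control library in decorin-high members (vertical axis) and in Dcn-low tumour barcodes (horizontal axis) for the tested genes of 5 lists, with a line where both are equal. Points lie along the line, interferon gamma and complement genes mostly just under it.

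Several of the highest ratios were also present in T cell or macrophage barcodes, and the cause was not tested. Junb, an AP-1 subunit, had 2647 CPM in antibody members and 68.0 CPM in control members, 1985 and 38.8 CPM in T cell barcodes and 1348 and 51.3 CPM in macrophage barcodes. Fth1, the ferritin heavy chain, had 12413 and 790 CPM in the members and 18631 and 1287 CPM in macrophage barcodes. Cox5a, a subunit of cytochrome oxidase, had 405 and 9.15 CPM in the members, and H2ax, the DNA damage histone variant, 145 and 3.61 CPM. In Dcn-low tumour barcodes Cox5a had 587 and 12.4 CPM and H2ax 263 and 6.8 CPM. H2ac20, a core histone gene, had 320 UMIs in antibody members and 3 in control members, a log2 ratio of 6.73 (5.39 to 9.23). Ms4a4d, a membrane protein gene, had 24 and 0.401 CPM in the members, against 91.1 and 51.2 CPM in Col1a1-high barcodes. The others of the highest 10 were H2-DMb1, Ankrd9, Cxcl9, Crlf2 and Emc6.

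Of 19 tested replication histone genes, 16 were at least 2-fold higher in antibody members, beside 9.9% of all genes. The median log2 ratio was 3.36, beside 5.08 in Dcn-low tumour barcodes. Other cells showed the difference too. The list summed to 1132 and 446 CPM in T cell barcodes of the antibody and control libraries. It summed to 375 and 172 CPM in Col1a1-high and 306 and 215 CPM in macrophage barcodes, and the cause was not tested.

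Among genes lower in antibody members, Prss12, the secreted protease neurotrypsin, had 4.02 CPM in antibody members and 60.4 CPM in control members, a log2 ratio of -3.90. In Dcn-low tumour barcodes it had 9.36 and 44.5 CPM, a ratio of -2.25. Csn3, the milk protein kappa-casein, had 3.86 and 36.6 CPM in the members and 12.5 and 78.4 CPM in Dcn-low tumour barcodes. Fap, the fibroblast activation protease, had 5.25 and 28.5 CPM in the members and 2.45 and 5.5 CPM in Dcn-low tumour barcodes. Tenm4, Cela1, D5Ertd615e, Acsbg1, Rerg, Angptl6 and Tafa1 completed the lowest 10.

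The antibody target was low in the members of both libraries. Slc7a11 had 32.8 CPM in antibody members and 26.6 CPM in control members, a log2 ratio of 0.30 (0.10 to 0.50), against 21.3 and 18.1 CPM in Dcn-low tumour barcodes. Slc3a2, the heavy chain that pairs with it, had 263 and 68.1 CPM in the members, against 292 and 87.4 CPM. The Slc3a2 difference was also present in T cell barcodes, at 390 and 58.2 CPM, and in macrophage barcodes, at 477 and 133 CPM.

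Few genes had an antibody to control ratio in the members that departed from that in Dcn-low tumour barcodes. The difference of the 2 log2 ratios was at least 1 for 1.24% and at most -1 for 1.6% of 13746 genes, with a median of -0.01. With at least 100 UMIs and detection in 10% of barcodes asked of both sets, 5 genes were left, all with a lower ratio in the members: Prss12, Ubd, Cxcl11, F3 and D5Ertd615e. Ubd, an interferon-induced ubiquitin-like protein, had 43.1 CPM in antibody members and 2.47 CPM in control members, against 34.7 and 0.721 CPM in Dcn-low tumour barcodes. Cxcl11, a CXCR3 ligand, had 36.6 and 8.15 CPM in the members, against 34.9 and 3.59 CPM. F3, the coagulation initiator tissue factor, had 19.6 and 9.69 CPM in the members, against 12.6 and 2.93 CPM. For these 3, the members of the control library stood above the control Dcn-low barcodes by more than the antibody members stood above theirs.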

How the data were processed

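The deposited files were 1 matrix of UMI counts per library, made by the authors from 10x 3' libraries with Cell Ranger 7.2.0, mm10 and Seurat, per the submitters' processing notes; order and parameters are not given in the sources used here. All barcodes of the tables were read by gene name. UMIs of the members were summed per library and expressed as CPM of that sum. Log2 ratios used a prior count of 0.5, and genes needed 20 UMIs over both sums. With 1 library per group there was no test, and called means at least 2-fold, in both libraries for comparisons between sets. Intervals are exact (Clopper-Pearson for shares, conditional binomial for ratios) at 95% and cover counting error only. T cell barcodes had a Ptprc UMI and 2 or more UMIs of Cd3e, Cd3d and Cd3g, and macrophage barcodes a Ptprc UMI and 10 or more of C1qa, C1qb and C1qc, both with Hmga2 at 0. Shares given at 1000 UMIs per barcode, and the cycling shares given at 3000, were taken after thinning to that depth. Other shares, among them those of members, of 2 Hmga2 UMIs and of marker combinations, were not thinned.

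Named genes were the 6 markers and, among genes with 100 UMIs detected in 10% of barcodes, the 15 highest and 10 lowest between sets and the 10 highest and 10 lowest between libraries. Genes chosen after their values were seen are named from the lists. The members and the 42 gene lists were chosen with earlier results of these data known. Doublets were not removed: Scrublet scores in scanpy 1.11.5 marked 3.06% of antibody members and 9.45% of control members, and leaving these out was an alternative. Free RNA was not corrected. Other alternatives were the Dcn, Col1a1, depth and count limits, thinning, scaling and averaging over barcodes. The calculation, in Python 3.11.15 with numpy 2.4.6, scipy 1.17.1 and pandas 2.3.3, was tested on simulated data. Not every listed gene is reported here.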

Additional observations from a re-analysis of the deposited data

How the results depend on the processing

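No paired analysis was possible because each group has 1 library; for the same reason no replicate could be left out. The log2 ratio of the member share (-0.50) was -0.60 with a lower Dcn threshold, -0.40 with at least 2000 UMIs and -0.11 over Ptprc-zero barcodes. Between libraries, the 1361 higher genes became 890 with a minimum of 100 UMIs, 868 with thinned barcodes and 4541 with no minimum, and the 622 lower genes became 221 and 4709 with the minimum of 100 and with none. Between sets, the 622 higher genes became 350 with the lower Dcn threshold, 369 with the minimum of 100, 311 thinned, 1078 with no Col1a1 limit and 3156 with no minimum. The 283 lower genes became 30 with the lower Dcn threshold, 627 with Dcn at 5000 CPM, 126 with Hmga2 asked of both sets, 609 as a mean of barcode CPM, 451 with the median of ratios and 458 with no minimum. For the difference of ratios, the 171 higher became 8 with the minimum of 100, 272 as a mean of barcode CPM, 396 with no Col1a1 limit and 2938 with no minimum, and the 220 lower became 31, 453 as a mean of barcode CPM and 3022 with no minimum. The cause was not tested. The endothelial list median in the antibody library (1.34) was -0.64 with Dcn at 5000 CPM and -0.34 with Hmga2 asked of both sets. The difference for Ms4a4d (1.48) was -0.85 with no Col1a1 limit. Over all settings run, the proliferation median between sets stayed between -1.96 and -0.78 in the antibody library and between -2.29 and -0.68 in the control library, and the interferon gamma median between libraries between 2.60 and 2.92. Scaling by the median of ratios moved the median of all genes from -0.18 to -0.04 between libraries. Depth limits genes under 20 UMIs, which are not counted.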
